A study of Homo sapiens with 4 samples.

Results

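Insulin-like growth factor (IGF) genes and the genes of their binding proteins were followed in poly(A) RNA sequencing of a cell line that carries the label SH-SY5Y, a line derived from human neuroblastoma. The members were taken by name from the deposited count table, IGF1, IGF2 and IGFBP1 to IGFBP7, which makes 9 of its 28058 genes. There were 2 SWT samples, given shock wave treatment, and 2 untreated control samples, with harvest 6 h after SWT according to the labels' protocols. Those protocols describe SWT as 300 pressure impulses at 0.08 mJ/mm2 and 3 Hz, applied at 7 cm to flasks in a 37 °C water bath, whereas the design text of the series speaks of exosomes. All 4 samples share the cell line and a medium with fetal calf serum, itself a source of IGF proteins. Separate cultures for the 2 samples of a group are not stated in the labels. The p-values therefore reflect the spread between these 4 libraries, and that spread may be technical.

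IGF1 and IGF2 are small secreted hormones related to insulin. They act through the tyrosine kinase receptor encoded by IGF1R, while the receptor encoded by IGF2R takes up IGF2 for breakdown in lysosomes. The secreted binding proteins hold the factors outside the cell, can block or prolong their action, and are cut by proteases such as PAPPA, which releases the bound factor. In neuroblastoma, IGF2 is known as a growth factor made by tumour cells and by stroma.

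Total counts were 10043697 and 11686808 in SWT replicates 1 and 2, and 11647603 and 9888263 in control replicates 1 and 2. Levels below are CPM, each gene's count scaled to a common library total after trimmed-mean (TMM) scaling. Where a gene had no count, the library's limit lay between 0.257 and 0.303 CPM (3 counts, counting error only). Of 10 noradrenergic neuroblastoma markers, PHOX2A, TH, DBH and CHGA had 0 counts in all 4 libraries and 1, HAND2, reached 10 CPM in each, whereas all 8 mesenchymal markers did, so the defining markers of the labelled line were largely absent. Over 10 heart muscle markers the summed level was 28.5 and 9.69 CPM in the SWT libraries and 7.49 and 298 CPM in the control libraries. Control replicate 2 was thus highest and SWT replicate 1 next. MYH7 was highest in SWT replicate 1, with 55 and 1 counts in SWT and 3 and 35 in control. Each other marker was highest in control replicate 2. RYR2 alone gave 8.83 CPM in SWT replicate 2 and 6.37 CPM in control replicate 1.

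Stretches of promoter are shown for IGFBP3, which had the largest difference between the groups among the members, and for IGFBP4, IGFBP5 and IGFBP6, the other tested members with a single listed start. RefSeq (GRCh38.p14) promoter entries matched 6 of the 9 members, and IGF1 and IGFBP2 have 2 and 3 listed starts. Each line holds the 100 bases before the gene's start as listed in RefSeq, 5′ to 3′ on its own strand. Capitals mark the TATA motifs TATAAA and TATATA and the GC box GGGCGG, each searched on both strands (a GC box on the other strand reads CCGCCC).
IGFBP3: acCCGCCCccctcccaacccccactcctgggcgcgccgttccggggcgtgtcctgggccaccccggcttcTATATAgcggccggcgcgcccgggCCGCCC
IGFBP4: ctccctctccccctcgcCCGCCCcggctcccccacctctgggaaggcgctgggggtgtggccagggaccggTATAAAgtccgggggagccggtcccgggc
IGFBP5: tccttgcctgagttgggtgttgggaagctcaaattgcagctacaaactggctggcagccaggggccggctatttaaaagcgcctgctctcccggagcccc
IGFBP6: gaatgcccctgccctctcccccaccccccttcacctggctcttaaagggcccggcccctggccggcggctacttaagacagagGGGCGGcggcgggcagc

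The IGFBP3 stretch lies at chr7:45921273-45921372 on the minus strand, that of IGFBP4 at chr17:40443350-40443449 on the plus strand, that of IGFBP5 at chr2:216695550-216695649 on the minus strand and that of IGFBP6 at chr12:53097567-53097666 on the plus strand. The GENCODE 29 spans given below start elsewhere, at 45921874 for IGFBP3 and at 53097436 for IGFBP6. The stretches of these 2 genes therefore lie inside their GENCODE spans. A TATA motif began 30 bases before the RefSeq start in IGFBP3 (TATATA) and 29 bases before it in IGFBP4 (TATAAA). Neither exact string was found in the IGFBP5 and IGFBP6 stretches, and 6.08% of all 35116 promoter windows of this length hold one of them. Variants of these strings were not searched, so a TATA box of another form is not excluded in either stretch. The motif GGGCGG, present in 31.3% of windows, occurred 2 times in IGFBP3 and 1 time each in IGFBP4 and IGFBP6. GC content was 79% in IGFBP3, 76% in IGFBP4, 72% in IGFBP6 and 59% in IGFBP5, against a median of 60% over all windows. These letters describe the windows only, and binding at them was not measured.

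The growth factor genes themselves gave almost no reads. IGF1 (chromosome 12, 102395874 to 102481744, minus strand, GENCODE 29 on GRCh38) had 0 and 1 counts in the SWT libraries and 0 and 1 in the control libraries, so it was at the limit of detection in both groups. IGF2 (chromosome 11, 2129112 to 2149603, minus strand) was listed with 0 counts in all 4 libraries. The read-through gene INS-IGF2, the antisense gene IGF2-AS, INS and the imprinted neighbour H19 were also listed with 0 counts in every library.

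The 0 counts of IGF2 could not be read as absence of its RNA. In RefSeq the gene spans 2129117 to 2149566 of chromosome 11, all of it inside INS-IGF2, which spans 2129117 to 2161209. Reads that fall on both genes cannot be told apart by position, and how the authors' counting treated them is not given in the sources used here. Of 105 genes in the count table that are the downstream partner of such a read-through gene and lie inside its RefSeq span, 51 (48.6%) had 0 counts in all libraries, against 4394 of 18463 protein-coding genes (23.8%). EIF4A1, which encodes a translation initiation factor used by all cells and lies in such a pair with SENP3, was also listed with 0 counts. These partner genes were looked up after the 0 counts of IGF2 had been seen. In GENCODE 29, INS-IGF2 shares 1460 of the 6979 exon bases of IGF2 (20.9%). A second entry also named IGF2 shares 5144 of them. The other 1835 exon bases lie in no exon of another gene on the same strand. The RefSeq spans above include introns, so they overstate the shared part. Whether shared bases account for the 0 counts of IGF2 was not tested.

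Among the binding proteins, IGFBP4 transcripts were by far the most abundant. Levels of different genes are compared here as CPM per kilobase of merged exons. IGFBP4 (chromosome 17, 40443461 to 40457731, 4 exons), whose product binds both factors and is the main substrate of the protease PAPPA, stood at 194 ± 4.02 CPM per kilobase over the 4 libraries (SD, n = 4) and ranked 133rd of 25743 genes with a known length. IGFBP6 (chromosome 12, 53097436 to 53102345), which prefers IGF2, followed at 24.4 ± 1.53 CPM per kilobase. IGFBP3 (chromosome 7, 45912245 to 45921874), the main carrier of the factors in blood, stood at 9.75 ± 1.41 CPM per kilobase, IGFBP5 (chromosome 2, 216672105 to 216695525) at 5.80 ± 0.305 and IGFBP2 (chromosome 2, 216632828 to 216664436) at 4.27 ± 0.375 (SD, n = 4 each).

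This order held within every library. The IGFBP4 level per kilobase was 7.62 to 8.45 times that of IGFBP6, the IGFBP6 level 2.09 to 3.23 times that of IGFBP3, the IGFBP3 level 1.30 to 1.91 times that of IGFBP5 and the IGFBP5 level 1.28 to 1.49 times that of IGFBP2. With the longest transcript as the length of a gene the order was the same, but the level of IGFBP3 was 18.5 CPM per kilobase, and IGFBP6 was then 1.26 to 1.95 times as high. The lengths come from GENCODE 29 and need not be those of the authors' annotation. IGFBP7 and IGFBP1 lay below all of these.

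**Figure D1:**
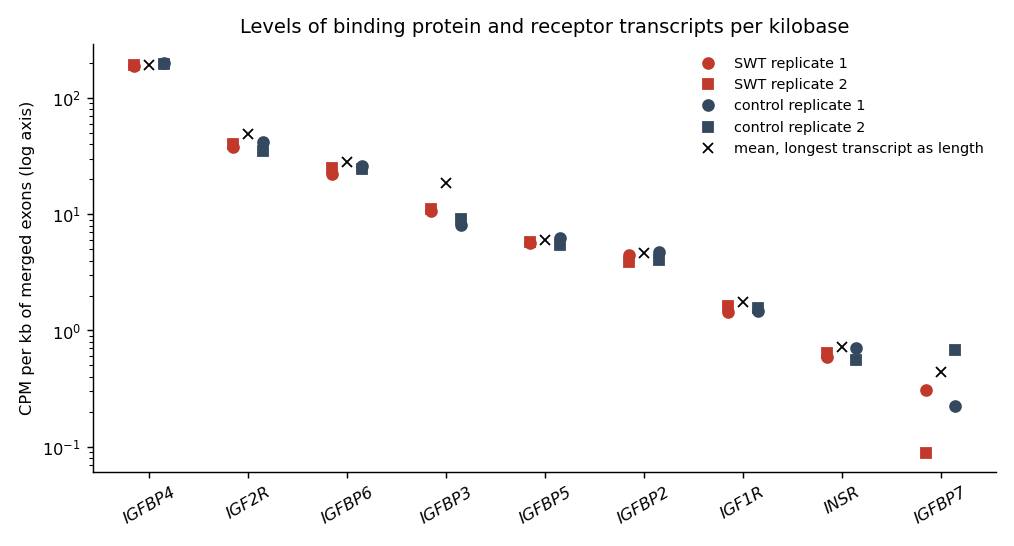
Levels of 6 binding protein genes and 3 receptor genes in CPM per kilobase of merged exons (log axis), with SWT libraries left of control libraries for each gene and crosses for the 4-library mean with the longest transcript as length. IGFBP4 is highest in every library, at 189 to 199 CPM per kilobase, and the IGFBP7 libraries spread from 0.0889 to 0.680.

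The comparison of SWT with control asks which of these genes differed 6 h after treatment, and no member passed the test. With edgeR's quasi-likelihood test and Benjamini-Hochberg adjustment over 12399 genes, 0 of the 5 tested members were called, as were 0 of all genes tested (0%). At an unadjusted p under 0.05, 1 of the 5 members was counted, against 715 of all genes (5.77%). The 2 groups did not overlap in CPM for 2 of the 5 members, IGFBP3 above and IGFBP4 below, and for 35.3% of all genes tested. The median log2 fold change was -0.046 over the 5 members, of which 4 lay below 0, and -0.00078 over all genes tested. IGF1, IGF2, IGFBP1 and IGFBP7 did not pass the filter on low counts.

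IGFBP3 had the largest difference among the members. It stood at 48.9 and 50.9 CPM in SWT replicates 1 and 2, against 36.9 and 41.6 CPM in control replicates 1 and 2. Both SWT libraries were therefore higher than both controls. Its mean was 49.9 ± 1.39 CPM in SWT and 39.3 ± 3.32 CPM in control (SD, n = 2 each), which is 1.27-fold with a 95% interval of 1.13 to 1.44 that is not corrected for the number of genes. On the log2 scale the difference was 0.35 with an SE of 0.08, and it did not pass (edgeR adjusted p = 0.759). In single pairs of an SWT and a control library the log2 difference ran from 0.23 to 0.46, whereas the SWT libraries differed from each other by 0.057 and the controls by 0.17. Its unadjusted p in edgeR was 0.00053, and it was the only member counted at that level.

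Whether IGFBP3 was called depended on the fit. With no filter on low counts edgeR gave it an adjusted p of 0.0152 at a log2 fold change of 0.35. That fit called 63 of 17737 genes (0.355%). A crossed replicate block, added after the data were seen, gave an edgeR adjusted p of 0.00285 at 0.35. It called 97 of 12399 genes. The pairing it uses is the one that these same libraries favour, so its p-values are no separate support. Dropping control replicate 2 gave a log2 fold change of 0.44, and dropping control replicate 1 gave 0.26. Each of these 2 values rests on 1 control library, so no p-value is given for them. Over the alternatives that kept all 4 libraries, adjusted p-values for IGFBP3 ran from 0.00285 to 0.9998. IGFBP3 was higher in SWT in all 14 alternatives run. Both SWT libraries lay above both controls, so leaving out a library could not have turned its sign. Its constant sign is therefore no separate support. On the deposited log2 values the difference was 0.10, on a compressed scale where differences between SWT replicate 2 and control replicate 1 had a slope of 0.378 on those of log2 CPM. When trends with length and GC content of transcripts were taken out of each library, the log2 fold change was 0.35 (edgeR adjusted p = 0.278).

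**Figure D2:**
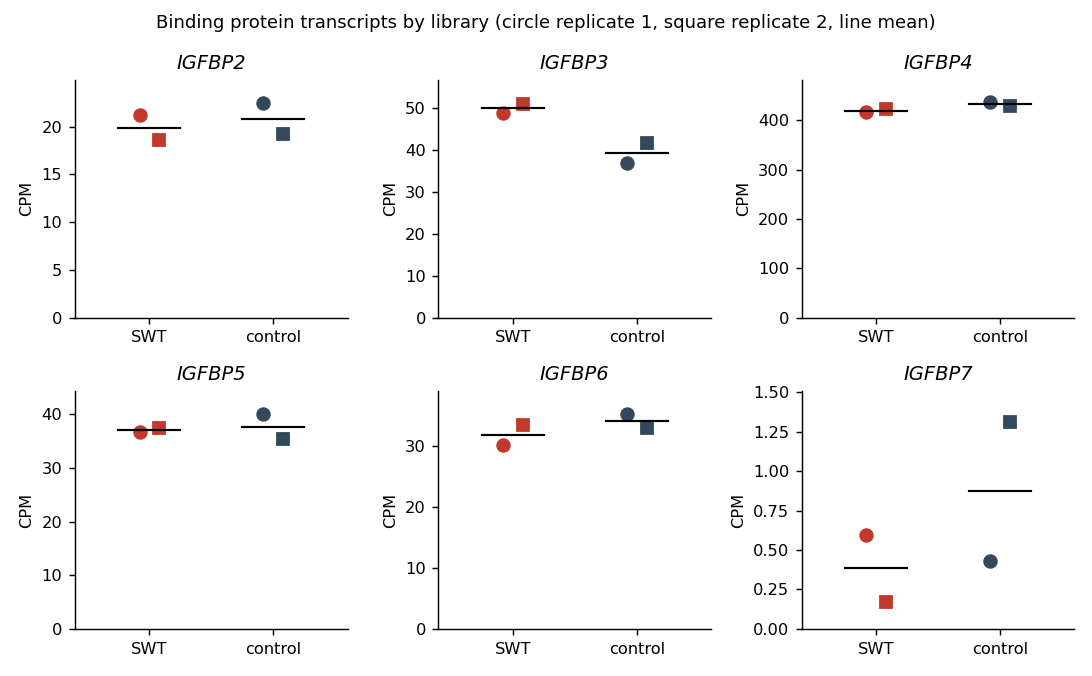
CPM of 6 binding protein genes in each library, SWT left of control, with circles for replicate 1, squares for replicate 2 and a line at the mean of 2 libraries. IGFBP3 is at 48.9 and 50.9 CPM in SWT and at 36.9 and 41.6 CPM in control, whereas the groups overlap for IGFBP2, IGFBP5, IGFBP6 and IGFBP7 and IGFBP4 is slightly lower in SWT, at 417 and 422 CPM against 437 and 429 CPM.

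The most abundant member, IGFBP4, was close to level between the groups. It stood at 417 and 422 CPM in the SWT libraries, against 437 and 429 CPM in the control libraries, so both SWT libraries lay slightly below both controls. The log2 fold change was -0.046 with an SE of 0.05 (edgeR adjusted p = 0.932), and the 95% interval ran from 0.898-fold to 1.04-fold. Once the length and GC trends were removed the value was 0.00021.

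IGFBP2, IGFBP5 and IGFBP6 did not differ by more than the spread between libraries. IGFBP2 had 21.2 and 18.6 CPM in SWT, against 22.5 and 19.2 CPM in control, a log2 fold change of -0.074 with a 95% interval of -0.33 to 0.18 (edgeR adjusted p = 0.961). IGFBP5, a binding protein that attaches to extracellular matrix, had 36.7 and 37.5 CPM in SWT, against 40.0 and 35.4 CPM in control, a log2 fold change of -0.027 with an interval of -0.21 to 0.16 (edgeR adjusted p = 0.988). IGFBP6 had 30.2 and 33.4 CPM in SWT, against 35.1 and 32.9 CPM in control, a log2 fold change of -0.099 with an interval of -0.29 to 0.095 (edgeR adjusted p = 0.928). The groups overlapped for all 3 genes. The sign of the log2 fold change turned for IGFBP2 without control replicate 1 (0.049) or SWT replicate 2 (0.024), and for IGFBP5 without control replicate 1 (0.070).

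**Figure D3:**
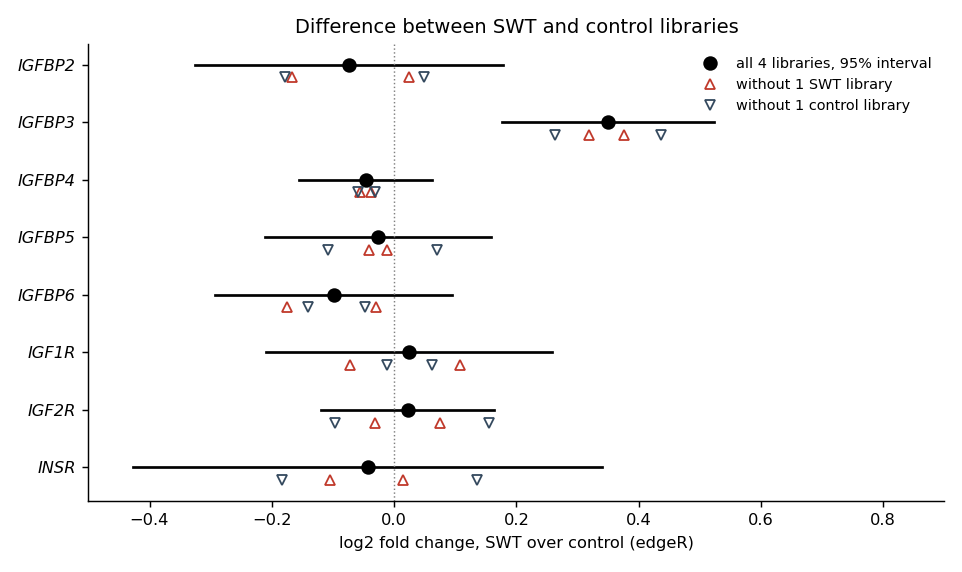
Log2 fold change of SWT over control for the 5 tested binding protein genes and 3 receptor genes, with filled circles and lines for the edgeR estimate and its 95% interval and open triangles for fits without 1 library. The interval of IGFBP3 runs from 0.18 to 0.52 and those of the other 7 genes include 0.

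IGFBP7 and IGFBP1 were too sparse to compare. IGFBP7 (chromosome 4, 57030773 to 57110385), a matrix-associated relative that binds the factors weakly and is prominent in blood vessels, had 6 and 2 counts in the SWT libraries, against 5 and 13 in the control libraries. The exact 95% Poisson intervals, which cover counting error only, were 2.20 to 13.1 and 0.242 to 7.22 counts in SWT and 1.62 to 11.7 and 6.92 to 22.2 counts in control. Control replicate 2 was the highest of the 4, and the same library had the highest summed level of 10 heart muscle markers (298 CPM) and of 4 endothelial markers (4.34 CPM, against 1.46 to 1.59 CPM in the others). Of the 4 endothelial markers, VWF had 3 and 1 counts in SWT and 1 and 17 in control, PECAM1 12 and 16 in SWT and 15 and 23 in control, and CDH5 0 and 0 in SWT and 0 and 3 in control. KDR went the other way, with 1 and 1 counts in SWT and 1 and 0 in control. The part of either cell type in the IGFBP7 counts was not tested. In bulk RNA fewer cells of a type and less RNA per cell cannot be told apart. IGFBP1 (chromosome 7, 45888357 to 45893668), mainly a liver gene, had 0 counts in both SWT libraries and 1 count in each control library.

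As shares of the summed level per kilobase of the 7 binding protein genes, IGFBP4 made up 81.0 ± 0.384% in SWT and 81.5 ± 0.163% in control, and IGFBP6 10.0 ± 0.576% in SWT and 10.5 ± 0.312% in control (SD, n = 2 each). The share of IGFBP3 was 4.64 ± 0.0636% in SWT and 3.56 ± 0.356% in control. IGFBP5 held 2.45 ± 0.00196% in SWT and 2.42 ± 0.174% in control, and IGFBP2 1.78 ± 0.190% in SWT and 1.81 ± 0.173% in control. The mix of binding protein transcripts was thus dominated by IGFBP4 in all 4 libraries.

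The 5 genes whose deviations from their own mean over the 4 libraries lay closest to those of IGFBP3 were SEMA3D, ZNF518A, TRIB1, LRRC8C and NUTM2B-AS1. Their root mean square difference from IGFBP3 was 0.022 to 0.027 on the log2 CPM scale, among 5330 genes whose own range was at least 50% of that of IGFBP3. SEMA3D, a secreted guidance molecule, had 18.2 and 18.9 CPM in SWT, against 14.0 and 15.2 CPM in control. With 4 libraries many genes share such a pattern, and none of the 5 was called (edgeR adjusted p = 0.838 to 0.871).

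The receptor genes were present at very different levels. IGF2R had 671 and 723 CPM in SWT, against 746 and 626 CPM in control, and its level per kilobase was 22.5 to 28.2 times that of IGF1R in the 4 libraries. IGF1R had 20.1 and 22.8 CPM in SWT, against 20.7 and 21.7 CPM in control, and per kilobase it stood at 2.12 to 2.78 times INSR, the insulin receptor gene. INSR had 6.15 and 6.69 CPM in SWT, against 7.32 and 5.86 CPM in control, and INSRR, a related receptor gene, had 1 count in all. The groups overlapped for each of these genes, and log2 fold changes were 0.022 for IGF2R, 0.024 for IGF1R and -0.043 for INSR (edgeR adjusted p = 0.987, 0.993 and 0.992). Each of these 3 signs turned in at least 1 of the fits without a library, and IGF1R (-0.0092) and IGF2R (-0.028) also turned negative once the length and GC trends were removed.

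The wider pathway was covered by a list of 45 genes, of which 38 were tested and 0 passed in either direction. Of the 38, 25 lay above 0 and 13 below. Their median was 0.023 as a log2 fold change, and the groups did not overlap for 14 (36.8%), against 35.3% of all genes tested. By role, the median was 0.022 for 3 receptors, 0.096 for 5 extracellular partners and proteases, 0.062 for 7 adaptors, 0.00037 for 17 genes of the PI3K-AKT arm, 0.032 for 3 FOXO factors and 0.0075 for 3 RNA-binding proteins. PAPPA, the protease that cuts IGFBP4, had 28.5 and 24.4 CPM in SWT, against 23.9 and 22.5 CPM in control (log2 fold change 0.18, edgeR adjusted p = 0.870). Its log2 fold change was 0.072 without SWT replicate 1 and 0.29 without SWT replicate 2. Per kilobase, the level of IGFBP4 was 77.0 to 100.1 times that of PAPPA.

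Further values that did not pass were 0.21 for SOS2, an exchange factor of the RAS arm, 0.10 for RHEB, the activator of MTOR, -0.10 for the adaptor SHC1, -0.088 for the kinase gene AKT2 and -0.048 for AKT1, as log2 fold changes (edgeR adjusted p = 0.843 to 0.941). SHC1 had 1013 and 1048 CPM in SWT, against 1145 and 1065 CPM in control. It was the exception under 1 alternative, called with control replicate 2 dropped, at a log2 fold change of -0.15. That call rests on 1 control library. The log2 fold change of AKT1 reached 0.000102 without SWT replicate 1. IGF2BP1, IGF2BP2 and IGF2BP3, RNA-binding proteins named for their binding to IGF2 transcripts, stood at 131 and 133, 85.1 and 80.8, and 102 and 94.9 CPM in the SWT libraries, against 135 and 128, 82.4 and 88.9, and 88.7 and 95.4 CPM in the control libraries. Their log2 fold changes were 0.0075, -0.046 and 0.10 (edgeR adjusted p = 0.896 to 0.997), and the groups overlapped for all 3.

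Among pathway genes that did not pass the filter, IGFALS, which encodes the subunit that holds IGF complexes in blood, and the adaptor gene IRS4 were listed with 0 counts in all 4 libraries. INSRR, ADAM28 and GRB10 had 3 counts or fewer in any library. STC2, an inhibitor of PAPPA, had 7 and 15 counts in SWT and 6 and 6 in control.

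**Figure D4:**
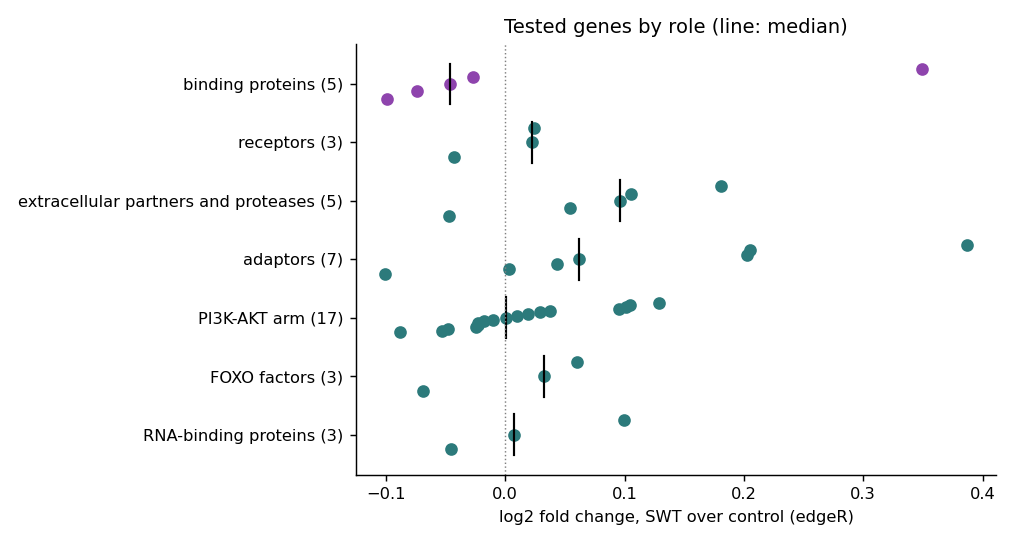
Log2 fold change of SWT over control (edgeR) for the tested binding protein genes and for pathway genes grouped by role, with a line at each group's median and the number of tested genes in brackets. IGFBP3 lies at 0.35, apart from the other 4 binding proteins, and the adaptor gene at 0.39 is GRB14, with an edgeR adjusted p of 0.893.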

How the data were processed

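Raw counts for 28058 gene symbols and log2 values for 17151 genes were deposited by the authors, in 1 table each. Per the submitters' processing notes, Trimmomatic 0.36, FastQC 0.11.5, STAR 2.5.3a, HTSeq, DESeq2 and the build hg38 were named without a role. Per the labels' protocols, library preparation kept the strand and selected mRNA. Which annotation and strand setting the counting used is not given in the sources used here.

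Counts were tested with edgeR 4.0.16 (R 4.3.3), with TMM factors (0.997 to 1.004), filterByExpr with the group, the quasi-likelihood F-test and Benjamini-Hochberg adjustment over 12399 genes at 0.05. Each SE was taken as the size of the log2 fold change divided by the root of its F statistic, so intervals are approximate. The main edgeR fit was also run on simulated counts, drawn independently for each gene and library. Such counts lack differences shared by many genes in a library, like those of the heart muscle markers. The simulation therefore does not show how the test behaves under them. Alternatives used limma 3.58.1, DESeq2 1.42.0 and the deposited log2 values as they stand. Lengths and coordinates are from GENCODE 29 by symbol, known with GC content for 97.5% of tested genes. Plots were made with matplotlib 3.10.9 under Python 3.11.15.

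The members and lists were chosen with earlier results of these data known. All members, all receptors and RNA-binding proteins of the list, its 3 genes with the smallest p in each direction and the 5 genes most like IGFBP3 were named by rule. INS-IGF2, IGF2-AS, INS and H19 were named as overlapping or neighbouring genes. Other genes were named after their values were seen. Single values of some listed genes are not reported here.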

Additional observations from a re-analysis of the deposited data

How the results depend on the processing

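No member and no gene was called by edgeR with DESeq2 size factors, with upper-quartile factors or with a filter at a mean count of 50, nor by limma-voom, by DESeq2 or by limma on the deposited log2 values. At an unadjusted p under 0.05 these fits counted 722, 740, 615, 721, 116 and 1191 genes, in that order. With no filter on low counts there were 20 genes higher, among them 1 member, IGFBP3, and 43 lower. With the length and GC trends removed 1 gene was higher. The replicate numbers gave no sign of pairing (correlation of same-numbered deviations -0.264, from 1 difference per group), and the replicate block gave 1 gene lower and 0 members. A crossed replicate block, added after the data were seen, gave 55 genes higher, 42 lower and 1 member higher. It joins SWT replicate 1 with control replicate 2, the pairing that the negative correlation in these same libraries favours. Its calls are therefore no separate support. Fits without 1 library called 2 to 106 genes higher, 15 to 97 lower, 0 to 1 members higher (1, IGFBP3, without control replicate 2) and 0 to 1 pathway genes lower, where the lone library of a group is taken to vary as the remaining pair does. The causes of these differences were not tested.

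Leaving out single libraries turned the sign of IGFBP2 (-0.18 to 0.049), IGFBP5 (-0.11 to 0.070), IGF1R (-0.072 to 0.11), IGF2R (-0.096 to 0.16), INSR (-0.18 to 0.14), AKT1 (-0.098 to 0.000102), IGF2BP1 (-0.029 to 0.049) and IGF2BP2 (-0.10 to 0.0092). Without a change of sign, the ranges were -0.18 to -0.030 for IGFBP6, -0.059 to -0.031 for IGFBP4, 0.072 to 0.29 for PAPPA, 0.10 to 0.31 for SOS2, 0.045 to 0.16 for RHEB, 0.044 to 0.16 for IGF2BP3, -0.15 to -0.046 for SHC1 and -0.11 to -0.068 for AKT2. Removing the trends turned IGFBP4 (0.00021), IGF1R (-0.0092), IGF2R (-0.028) and IGF2BP1 (-0.019). The order of the 5 binding proteins by level per kilobase was the same under the 6 alternatives run. Only the longest transcript as length could have changed it. The others leave out or rescale whole libraries, and the order held within each library. Counts of 13 or fewer per library leave IGF1, IGF2, IGFBP1 and IGFBP7 without a usable comparison.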
